A study of Homo sapiens with 6 samples.

Results

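Solute carriers are the membrane proteins that move amino acids, sugars, ions, metals, vitamins, nucleotides and lipids across the plasma membrane and the membranes of organelles. The members described here were all genes whose symbol has the solute carrier form (SLC, a family number, a letter and a member number), apart from the mitochondrial SLC25A carriers and 10 amino acid carriers (SLC7A5, SLC3A2, SLC7A11, SLC7A1, SLC7A2, SLC7A6, SLC1A5, SLC38A1, SLC38A2 and SLC43A1). That rule took 170 of the 13271 genes in the deposited table. Of the 219 symbols with this form, it left out 39 SLC25A genes and the 10 carriers named above. The 170 genes belong to 43 numbered families and were sorted into 16 groups by substrate.

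The RNA came from 5637, an established human bladder cancer cell line, 48 h after transfection with Lipofectamine 3000. One group of 3 libraries received a plasmid for overexpression of MAT1A, which encodes the catalytic subunit of the liver form of methionine adenosyltransferase, the enzyme that makes S-adenosylmethionine. The other 3 libraries, the controls, received an empty vector, so both groups went through transfection. The labels name no clone and no selection step, and no source used here gives the share of cells that took up the plasmid. The labels leave unsaid whether the 3 libraries of a group came from separate cultures; p-values therefore reflect the spread among these 6 libraries alone, and that spread may be technical. The labels set up 1 comparison, the MAT1A plasmid against the empty vector.

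Solute carriers work in a few modes. Facilitative carriers such as the glucose transporters let a substrate run down its gradient, symporters such as the potassium-chloride cotransporters tie ions together, and exchangers such as the chloride-bicarbonate exchangers trade one for another. Gradients kept by the Na,K-ATPase at the plasma membrane and by the V-ATPase in acidic organelles drive the coupled carriers. Some carriers need a partner protein to reach the surface, and others are removed from it by arrestin-domain proteins and ubiquitin ligases.

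Levels are the authors' deposited values, scaled to a CPM-like unit, and correspond to between 17.4 and 21.6 M reads per library. On that scale 3 reads were worth 0.140 to 0.172. MAT1A itself stood at 1.09, 0.253 and 4.54 in control libraries 1, 2 and 3 and at 1805, 1834 and 1917 in MAT1A libraries 1, 2 and 3, so every library matched its label. All 12 epithelial markers looked for were in the table, at a summed level of 11473 to 11764 in the controls and 12254 to 13467 in the MAT1A libraries. Of these markers, 7 were called higher and 1 lower (66.7% called, against 11.4% of all genes). Skeletal muscle transcripts were also read, and 27 of 30 markers were in the table. They summed to 694, 285 and 204 in control libraries 1, 2 and 3 and to 199, 146 and 132 in the MAT1A libraries. Of the 24 tested, 19 were called lower (79.2%, against 7.4% of all genes), and the median log2 change was -1.42. TNNT1 held a large part of the lower sums and was not called. It stood at 77.3 to 86.4 in the controls and 70.5 to 78.8 in the MAT1A libraries. Fibroblast markers (5 of 10 in the table) summed to 145 to 263 in the controls, with control library 1 the highest, and to 123 to 130 in the MAT1A libraries. Of the immune markers 1 of 8 was listed (LYZ, 0.0466 to 1.66), and of the endothelial markers 1 of 5 (VWF, 0.579 to 1.13). The part of these transcripts in the results below was not tested beyond the values given with them.

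Genes were tested with limma on log2(value + 1), and a gene was called at an adjusted p under 0.05 over all 12866 genes tested. Of the 170 carriers, 167 reached a value of 1 in 3 or more libraries and were tested. The untested carriers were SLC7A7, at 0.402 to 0.869, SLC16A4, at 0.579 to 1.07, and SLC28A3, at 0.103 to 0.772. There were 17 called carriers, 10.2% of those tested, against 11.4% of all tested genes. Of these, 8 were higher in the MAT1A libraries (4.79%, against 4.01% of all genes) and 9 were lower (5.39%, against 7.4%). The share of called carriers was thus near the background. At an unadjusted p under 0.05 there were 45 carriers (26.9%, against 26.2% of all genes), again near the background.

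Changes were small. The median change of the 167 carriers was 0.02 on the log2 scale, against 0.00 for all tested genes, and their median size without sign was 0.08, against 0.07. Over all tested carriers only SLC16A6 and SLC4A1 had a change of more than 0.5 on the log2(value + 1) scale. SLC4A1 was not called. Values of the groups did not overlap for 49 carriers (29.3%), against 30.3% of all genes. The called carriers were among them with 1 exception, SLC30A1. Summed over all members, the level was 7575, 7467 and 7539 in control libraries 1, 2 and 3 and 7566, 7551 and 7507 in MAT1A libraries 1, 2 and 3, ranges that overlap. In bulk RNA, fewer cells of a type and less RNA per cell cannot be told apart.

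The count of calls moved with the design of the fit. With the replicate number as a block, 31 carriers were called (18.6%, against 18% of all genes): the same 17 plus 10 higher and 4 lower. Without control library 1, the one with the most muscle transcripts, 10 carriers were called (5.99%, against 6.4% of all genes), all of them among the 17. With the muscle marker level as a covariate, 6 carriers were called (3.59%, against 3.26% of all genes), among them SLC12A7, SLC2A6, SLC12A4, SLC1A3 and SLC41A2. The muscle marker level was itself lower in the MAT1A libraries, so this fit cannot fully separate it from the group. In each of these fits the carriers' share moved with that of all genes. Leaving out each library in turn kept 7 calls every time, those 6 and SLC17A5. DESeq2 did not call SLC16A6, SLC19A1, SLC5A6 or SLC27A4, and scaling to a library size without MAT1A ended the calls on SLC5A6 and SLC27A4.

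**Figure D1:**
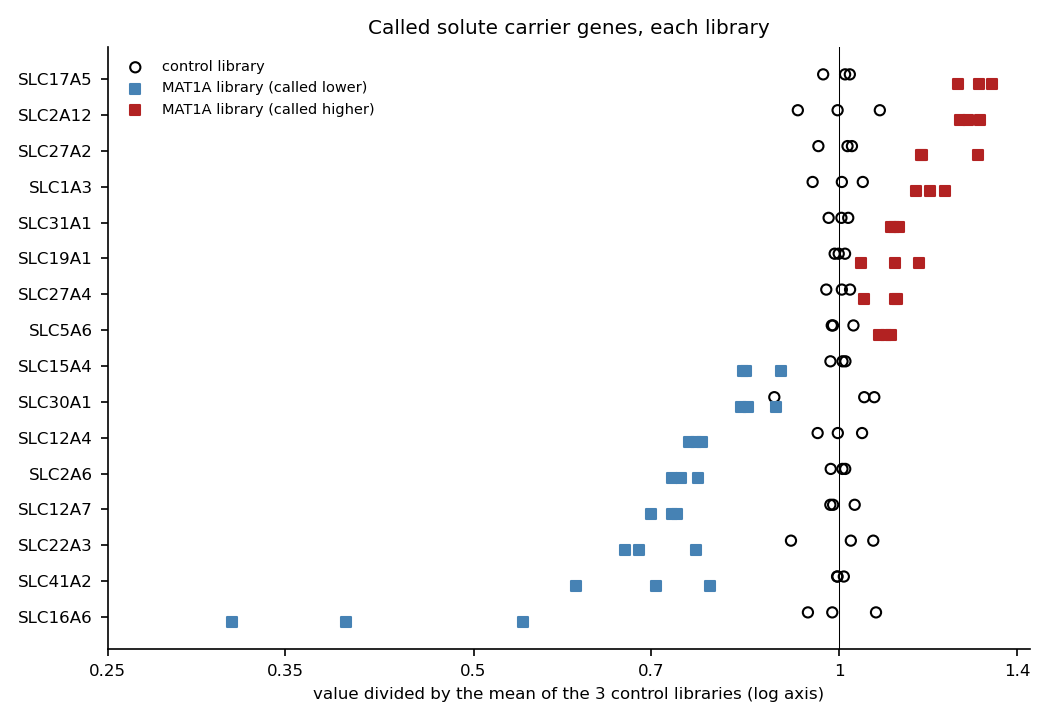
Each point is the deposited level of one of 16 called carriers in one library, divided by the mean of the 3 control libraries (log axis). The 3 MAT1A points lie on one side of all 3 control points for 15 of the 16 genes; SLC30A1 is the exception.

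Of the called carriers, 2 of the 3 with the smallest p were potassium-chloride cotransporters, which carry potassium and chloride out of the cell together and help set its volume and chloride level. SLC12A7 (KCC4) and SLC12A4 (KCC1) were both lower in the MAT1A libraries, by 27.9% and 23.8%. They were the only calls among the 9 tested genes for chloride-coupled cations and calcium (22.2%, against 11.4% of all genes). SLC12A7 lies on chromosome 5 at 1050376 to 1112035 (minus strand, GRCh38). Its level was 117, 121 and 116 in control libraries 1, 2 and 3 and 86.8, 85.9 and 82.5 in MAT1A libraries 1, 2 and 3. Every MAT1A library was below every control library. The mean fell from 118 ± 3.0 to 85.1 ± 2.25 (SD, n = 3 each); on the log2 scale this was -0.47 (SE 0.04, limma adjusted p = 1.52e-07). SLC12A4 lies on chromosome 16 at 67943474 to 67969601 (minus strand) and stood at 67.2, 64.6 and 70.3 in the controls and 51.3, 52.0 and 50.6 in the MAT1A libraries. Again the groups did not overlap, and the MAT1A values lay close together. Its log2 change was -0.39 (SE 0.04, limma adjusted p = 1.03e-05). The gene shares 336 exonic bases on the same strand with LCAT, whose own log2 change was -0.13 and was not called (adjusted p = 0.435).

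The promoters of both genes are shown because their transcripts fell together. Each window runs from 250 bases before to 50 bases after a RefSeq start (GRCh38.p14) and is written 5′ to 3′ on the gene's strand. Capitals mark matches, on either strand, to an E-box (CACGTG, bound by basic helix-loop-helix factors) or to the core of a metal response element (TGCACNC or TGCGCNC, bound by MTF1). SLC12A7 has 1 such window, at chr5:1112014-1112313, and SLC12A4 has 4, of which the most upstream is shown, at chr16:67968645-67968944.
SLC12A7: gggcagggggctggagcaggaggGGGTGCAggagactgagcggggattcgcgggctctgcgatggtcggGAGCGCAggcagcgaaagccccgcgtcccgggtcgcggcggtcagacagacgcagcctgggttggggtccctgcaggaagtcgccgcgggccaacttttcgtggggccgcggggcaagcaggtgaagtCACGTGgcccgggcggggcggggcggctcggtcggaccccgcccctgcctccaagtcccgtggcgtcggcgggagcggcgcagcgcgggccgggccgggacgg
SLC12A4: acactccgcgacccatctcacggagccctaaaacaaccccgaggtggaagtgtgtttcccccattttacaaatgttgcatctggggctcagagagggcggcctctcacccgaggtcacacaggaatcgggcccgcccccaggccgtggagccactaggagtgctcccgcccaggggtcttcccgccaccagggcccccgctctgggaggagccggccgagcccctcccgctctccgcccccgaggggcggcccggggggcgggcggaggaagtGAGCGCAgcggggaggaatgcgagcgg
The SLC12A7 window holds 1 E-box and 2 metal response element cores, and the SLC12A4 window holds 1 core. Among all 35116 promoter windows of this length, 7.26% hold the E-box and 29.6% a metal response element core. Among the 209 windows of the 134 members matched, the shares were 11.96% and 37.3%. The GC box (GGGCGG), which is not capitalised, was in 45.0% of all windows and 62.7% of the members' windows. Such matches describe letters only.

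The other cation-chloride carriers of the family were not called by limma; those given here are named after their values were seen. SLC12A2 (NKCC1), which brings sodium, potassium and chloride into the cell, averaged 58.5 ± 3.23 in the controls and 62.6 ± 4.54 in the MAT1A libraries (95% interval of the log2 difference -0.02 to 0.21). SLC12A9 stood at 47.8 to 51.4 in the controls and 53.7 to 57.4 in the MAT1A libraries and was called only with the replicate block (limma adjusted p = 0.0617, and 0.0359 with the block). Per kilobase of exon, SLC12A7 had the highest level of these 4 genes in both groups, at 19.7 in the controls and 14.2 in the MAT1A libraries, and SLC12A4 was next in the controls with 8.12. SLC12A4, SLC12A9 and SLC12A2 lay between 5.87 and 6.19 in the MAT1A libraries. The sodium-calcium exchanger SLC8A1 was at 15.9 to 16.5 in the controls and at 15.7, 12 and 13.2 in the MAT1A libraries, and it too was called only with the block (adjusted p = 0.0784, and 0.0309 with the block). The sum over the whole group was 437, 423 and 433 in the controls and 396, 384 and 392 in the MAT1A libraries, while the median log2 change of its 9 genes was 0.04.

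Bicarbonate, protons and anions had 18 tested carriers. SLC4A2 (AE2), a chloride-bicarbonate exchanger and the carrier of this group with the highest level per kilobase, averaged 249.7 ± 6.91 and 251 ± 7.5, a log2 difference of 0.01 (95% interval -0.06 to 0.08). SLC4A1, the anion exchanger of red cells, had the largest change of any tested carrier on the log2(value + 1) scale but spread widely: 2.01, 0.556 and 1.35 in the controls and 1.08, 0.308 and 0.186 in the MAT1A libraries. These values overlap, and in both groups library 1 was the highest. The lowest, in MAT1A library 3, was close to the 0.140 that 3 reads were worth there. The log2 change was -0.59 (limma adjusted p = 0.106, and 0.0107 with the block). With the block SLC4A11 was also called, as higher (log2 change 0.19, adjusted p = 0.0527 without and 0.0228 with it).

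**Figure D2:**
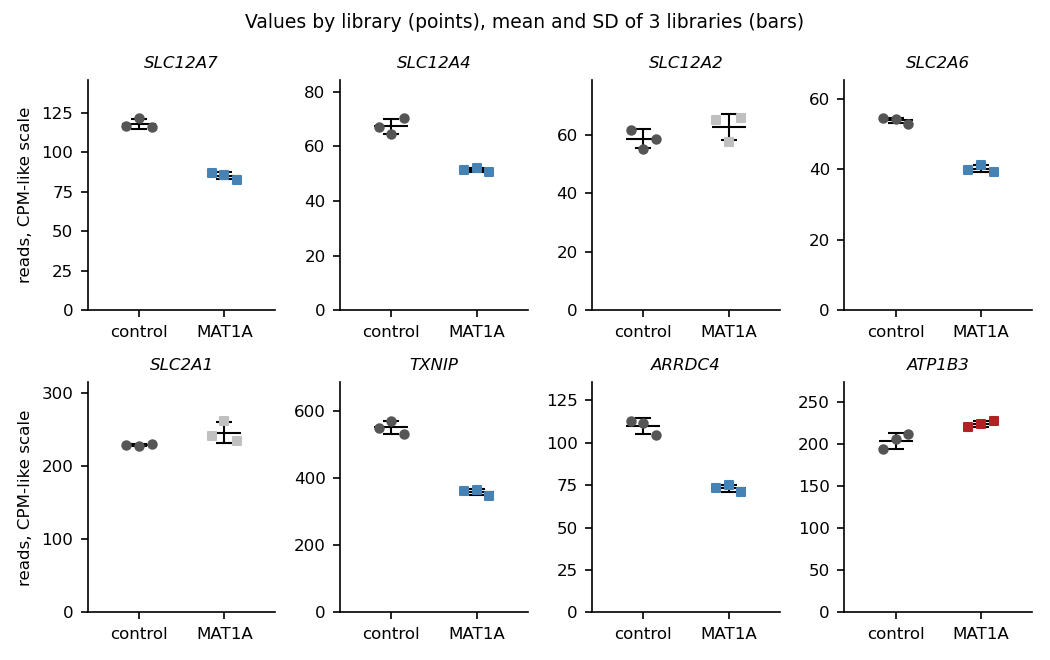
Deposited level in each library (points) with mean and SD (bars) for SLC12A7, SLC12A4, SLC12A2, SLC2A6, SLC2A1, TXNIP, ARRDC4 and ATP1B3; every axis starts at 0. SLC12A7 falls from 118 to 85.1 on average while the SLC12A2 points of both groups overlap.

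The 17 carriers of sugars and polyols gave 1 call in each direction (11.8% called, against 11.4% of all genes). SLC2A6 (GLUT6), a facilitative glucose carrier of internal membranes on chromosome 9 at 133471095 to 133479137 (minus strand), stood at 54.4, 54.1 and 52.9 in the controls and 39.9, 41.2 and 39.2 in the MAT1A libraries. The spread within each group was small beside the gap between them. Its mean was 25.5% lower (log2 change -0.42, SE 0.04, limma adjusted p = 5.12e-06), and the call held without each library in turn. SLC2A12 (GLUT12) went the other way, from 9.47, 10.3 and 8.78 to 12.4, 12.1 and 11.9, again without overlap. Its log2 change was 0.33 (SE 0.08, limma adjusted p = 0.0113), and leaving out control library 3 raised the adjusted p to 0.0682. SLC2A12 shares 1736 exonic bases on the opposite strand with TBPL1, which was not called (log2 change -0.09), and the library kit does not mark strand. SLC2A1 (GLUT1), the main carrier of basal glucose uptake, was at 228, 228 and 230 in the controls and 241, 262 and 234 in the MAT1A libraries. All MAT1A values were above the controls, yet SLC2A1 was not called (log2 change 0.10, limma adjusted p = 0.0930), except with the replicate block (0.0240). The same held for SLC2A11, at 1.59 to 1.87 in the controls and 1.89, 3.08 and 2.84 in the MAT1A libraries (0.0860, and 0.0466 with the block).

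The RefSeq promoter window of SLC2A6, at chr9:133479050-133479349 (minus strand, GRCh38.p14), is shown for its place as the carrier with the second smallest p. Its capitals mark a single metal response element core.
SLC2A6: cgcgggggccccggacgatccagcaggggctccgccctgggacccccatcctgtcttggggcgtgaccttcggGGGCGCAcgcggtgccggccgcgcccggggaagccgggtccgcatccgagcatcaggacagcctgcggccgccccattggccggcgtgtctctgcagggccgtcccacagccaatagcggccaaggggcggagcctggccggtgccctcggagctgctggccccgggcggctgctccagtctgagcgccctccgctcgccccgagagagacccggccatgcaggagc

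Carriers of zinc numbered 17, of which 1 was called (5.88%, against 11.4% of all genes). SLC30A1 (ZNT1) exports zinc from the cytoplasm and is a textbook target of the zinc sensor MTF1. It stood at 83.9, 69.4 and 82.3 in the controls and 69.7, 66.0 and 65.1 in the MAT1A libraries. Control library 2 lay just below MAT1A library 1, so the groups overlapped. Its log2 change was -0.22 (SE 0.06, limma adjusted p = 0.0186). The adjusted p was 0.000795 with the replicate block, 0.114 without control library 1 and 0.111 without control library 3. SLC39A10 (ZIP10), which brings zinc in, had its lowest value in library 2 of each group: 82.5, 70.7 and 80.1 in the controls and 72.1, 63.0 and 71.7 in the MAT1A libraries. SLC39A10 was called only with the block (log2 change -0.17, limma adjusted p = 0.0688, and 0.00174 with it). SLC39A8 (ZIP8) was called with the block as higher (log2 change 0.13, adjusted p = 0.0789 without and 0.0415 with it). The most abundant zinc carriers per kilobase, SLC39A1 (ZIP1) and SLC39A7 (ZIP7, of the endoplasmic reticulum), had log2 differences of 0.04 (95% interval -0.03 to 0.10) and 0.08 (-0.00304 to 0.16).

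The promoter of SLC30A1, at chr1:211579112-211579411 (minus strand, GRCh38.p14), is shown because metal response elements are known from this gene. In its RefSeq window the capitals mark 2 metal response element cores and 1 antioxidant response element core (TGACNNNGC, bound by NRF2), each matched on the opposite strand.
SLC30A1: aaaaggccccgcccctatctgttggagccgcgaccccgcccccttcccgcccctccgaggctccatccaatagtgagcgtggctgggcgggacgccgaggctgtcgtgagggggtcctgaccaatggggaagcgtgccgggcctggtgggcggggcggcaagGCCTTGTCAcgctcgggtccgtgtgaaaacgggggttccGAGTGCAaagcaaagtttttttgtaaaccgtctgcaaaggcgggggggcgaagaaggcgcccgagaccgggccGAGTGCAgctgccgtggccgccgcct
The antioxidant response element core was in 13.4% of all windows and in 13.4% of the members' windows. Metallothioneins, the small zinc-binding proteins that MTF1 also controls, gave 0 calls among 4 tested genes with limma, edgeR, DESeq2 and limma-voom, and with limma 1 had an unadjusted p under 0.05. That gene, MT2A, stood at 587, 616 and 601 in the controls and at 550, 606 and 519 in the MAT1A libraries, which overlap (log2 change -0.11, limma adjusted p = 0.116, and 0.00770 with the replicate block).

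Other metals and haem, with 8 tested carriers, gave 1 call in each direction (25% called, against 11.4% of all genes). SLC31A1 (CTR1), the copper importer, was higher: 81.0, 79.9 and 78.0 in the controls against 87.7, 89.1 and 88.3, and the log2 change was 0.15 (SE 0.04; limma adjusted p = 0.0124). The groups lay apart by more than the spread within either, but without control library 3 the adjusted p was 0.0775. SLC41A2, a magnesium carrier on chromosome 12 at 104802553 to 104958744 (minus strand), was lower in all MAT1A libraries, at 5.39, 6.27 and 6.95 against 8.84, 8.94 and 8.83. Its log2 change was -0.46 (SE 0.09, limma adjusted p = 0.00349), and this call held without each library in turn.

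All 8 carriers of vitamins were tested, and 2 were called (25%, against 11.4% of all genes). Both were higher (25%, against 4.01% of all genes). SLC19A1, the reduced folate carrier, stood at 85.4, 86.1 and 87.1 in the controls and 95.8, 100.2 and 89.8 in the MAT1A libraries. SLC5A6, which takes up biotin and pantothenate with sodium, stood at 82.8, 82.6 and 86.1 and then at 91.6, 92.4 and 90.3. Neither pair of groups overlapped, although the lowest MAT1A value of SLC19A1 was only slightly above the highest control. The log2 change of SLC19A1 was 0.14 (limma adjusted p = 0.0345), and that of SLC5A6 was 0.12 (limma adjusted p = 0.0347). Both calls were lost without control library 1, 2 or 3 or without MAT1A library 1 or 2, where the adjusted p reached 0.119 for SLC19A1 and 0.129 for SLC5A6. SLC5A6 shares 413 exonic bases on the opposite strand with ATRAID, which was itself called higher (log2 change 0.15, adjusted p = 0.0224), and their reads cannot be told apart there. SLC19A1 shares 1401 with COL18A1, which was not called (log2 change -0.08). SLC52A2, a riboflavin carrier, averaged 139 ± 1.35 and 148 ± 5.98 and was called only with the block (limma adjusted p = 0.125, and 0.0495 with it). The group summed to 408, 413 and 413 in the controls and 439, 448 and 429 in the MAT1A libraries, with 7 of 8 changes above 0 and a median of 0.07.

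Amino acids and amines made the largest group, with 20 of its 21 carriers tested and 1 called (5%, against 11.4% of all genes). SLC1A3 (EAAT1), which takes up glutamate and aspartate with sodium, lies on chromosome 5 at 36606355 to 36688334 (plus strand). Its level rose from 57.7, 52.5 and 55.5 to 63.8, 65.6 and 67.5. The lowest MAT1A value was above the highest control value, and the mean was 18.8% higher (log2 change 0.25, SE 0.04, limma adjusted p = 0.00156). The call held without each library in turn. With the replicate block SLC7A8 and SLC6A9, the glycine carrier GLYT1, were called higher as well (adjusted p = 0.0384 and 0.0418, against 0.0660 and 0.0739 without it). Of the 4 tested peptide carriers 1 was called (25%, against 11.4% of all genes). SLC15A4 (PHT1), which moves histidine and short peptides out of endolysosomes, was called lower. It stood at 32.0, 31.1 and 31.8 in the controls and at 26.4, 28.4 and 26.5 in the MAT1A libraries, with a log2 change of -0.22 (SE of 0.05, limma adjusted p = 0.0118). SLC15A4 did not overlap between groups but was not called without control library 1, control library 3 or MAT1A library 1 (adjusted p up to 0.0545). The median of this small group, -0.15, was the lowest of the 16.

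Phosphate and organic anions held 3 carriers, 1 of them called (33.3%, against 11.4% of all genes). SLC17A5 (sialin) exports sialic acid from lysosomes and lies on chromosome 6 at 73593379 to 73654155 (minus strand). It stood at 12.7, 13.3 and 13.2 in the controls and 17, 17.5 and 16.4 in the MAT1A libraries. That gap made it the largest rise among called carriers, 29.6% (log2 change 0.35, SE 0.07, limma adjusted p = 0.00208). The call was lost with the muscle marker level as a covariate (adjusted p = 0.0958). SLC20A1 (PiT1), the phosphate carrier with the highest level per kilobase of all members, was at 431, 422 and 444 in the controls and at 442, 433 and 442 in the MAT1A libraries. Those values overlap, with a log2 difference of 0.02 (95% interval -0.04 to 0.09).

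Carriers of lipids, bile acids and choline gave 2 calls among 13 (15.4%, against 11.4% of all genes). Both were higher (15.4%, against 4.01% of all genes). Both belong to the fatty acid transport family, whose other members in the table, SLC27A1, SLC27A3 and SLC27A5, were not called. SLC27A2 (FATP2) stood at 18.4, 17.4 and 18.6 in the controls and 21.2, 23.6 and 21.2 in the MAT1A libraries (log2 change 0.26, SE 0.06, limma adjusted p = 0.0125). SLC27A4 (FATP4) stood at 92.7, 94.1 and 89.998 and then at 102.6, 102.9 and 96.6 (log2 change 0.12, SE 0.04, limma adjusted p = 0.0427). In both genes every MAT1A library was above every control library. Without control library 2 the adjusted p of SLC27A2 was 0.0531. The call on SLC27A4 was lost on leaving out any library but MAT1A library 3, with an adjusted p of up to 0.184. SLC27A2 shares 557 exonic bases on the opposite strand with ATP8B4. SLC44A2, a choline transporter-like protein, averaged 188 ± 4.68 and 189 ± 6.03 and was not called (95% interval of the log2 difference -0.06 to 0.09).

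Monocarboxylate carriers, which move lactate, pyruvate and related acids with a proton, make up most of the 12 tested carboxylate carriers. Of these 12, 1 was called (8.33%, against 11.4% of all genes). SLC16A6 (MCT7) was a low gene, at 1.26, 1.16 and 1.11 in the controls and 0.647, 0.463 and 0.373 in the MAT1A libraries, the lowest resting on 8 reads. Only the 3 control libraries reached the value of 1 set by the filter, so SLC16A6 was tested through the group where it was higher. It was also called with no filter. The groups did not overlap. The log2 change of -0.55 (SE 0.14, limma adjusted p = 0.0158) is held down by the added 1; edgeR on the recovered reads gave -1.26 (adjusted p = 0.00892). Without control library 1 the limma adjusted p was 0.0682, and SLC16A6 shares 144 exonic bases on the opposite strand with ARSG. The abundant lactate carriers were not called. SLC16A1 (MCT1) was at 292, 288 and 300 in the controls and 291, 280 and 286 in the MAT1A libraries, overlapping, with a 95% interval of the log2 difference of -0.10 to 0.03. SLC16A3 (MCT4), known for lactate export, was at 340, 340 and 328 and then at 321, 335 and 286. Its groups overlapped too (log2 change -0.10, limma adjusted p = 0.169), though the replicate block called it (0.0200). BSG, the partner protein both need at the cell surface, was called higher: 850, 880 and 852 in the controls against 933, 988 and 887 (log2 change 0.12, limma adjusted p = 0.0397). That call was lost on leaving out any library but MAT1A library 3 (adjusted p up to 0.158). It was the single call among the 8 accessory proteins tested (12.5%, against 11.4% of all genes).

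Of the 8 carriers of organic ions and drugs, 1 was called (12.5%, against 11.4% of all genes). That gene was SLC22A3 (OCT3), a carrier of monoamines and other organic cations. It stood at 6.49, 6.22 and 5.55 in the controls and at 4.64, 4.16 and 4.06 in the MAT1A libraries, and its log2 change was -0.42 (SE 0.10, limma adjusted p = 0.00929). The groups did not overlap, and the adjusted p was 0.0510 without control library 1.

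The other 4 groups gave 0 calls with limma, and likewise with edgeR, DESeq2 and limma-voom; at an unadjusted p under 0.05, limma gave 4 of 14 carriers of nucleotide sugars and acetyl-CoA, 0 of 5 of nucleosides and nucleobases, 2 of 9 SLC35E, SLC35F and SLC35G genes and both carriers of the group for other substrates, where the share over all genes was 26.2%. For nucleotide sugars and acetyl-CoA, 14 carriers were tested; the replicate block called SLC35B2 and SLC35A2, which bring the sulfate donor PAPS and UDP-galactose into the Golgi (adjusted p = 0.0275 and 0.0433, against 0.0680 and 0.0642 without it). SLC35B2 stood at 91.4, 91.2 and 88.2 in the controls and 96.4, 101 and 95.2 in the MAT1A libraries, without overlap. SLC35A4 and SLC35B1, the highest means of that group, had log2 differences of 0.08 and 0.06. All 5 nucleoside and nucleobase carriers tested had changes above 0, from 0.06 to 0.17. Among them SLC29A1 (ENT1), the equilibrative nucleoside carrier, was at 42.6 to 43.2 in the controls and 43.9 to 45.7 in the MAT1A libraries, and SLC43A3, a purine nucleobase carrier, at 103 to 108 and 109 to 114. Those ranges did not overlap. The 9 members of the SLC35E, SLC35F and SLC35G subfamilies ranged in log2 change from -0.16 to 0.15, and their highest, SLC35F2 and SLC35E1, differed by -0.02 each. SLC18B1 and SLC49A4, the group for other substrates, had log2 differences of 0.15 and -0.15.

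**Figure D3:**
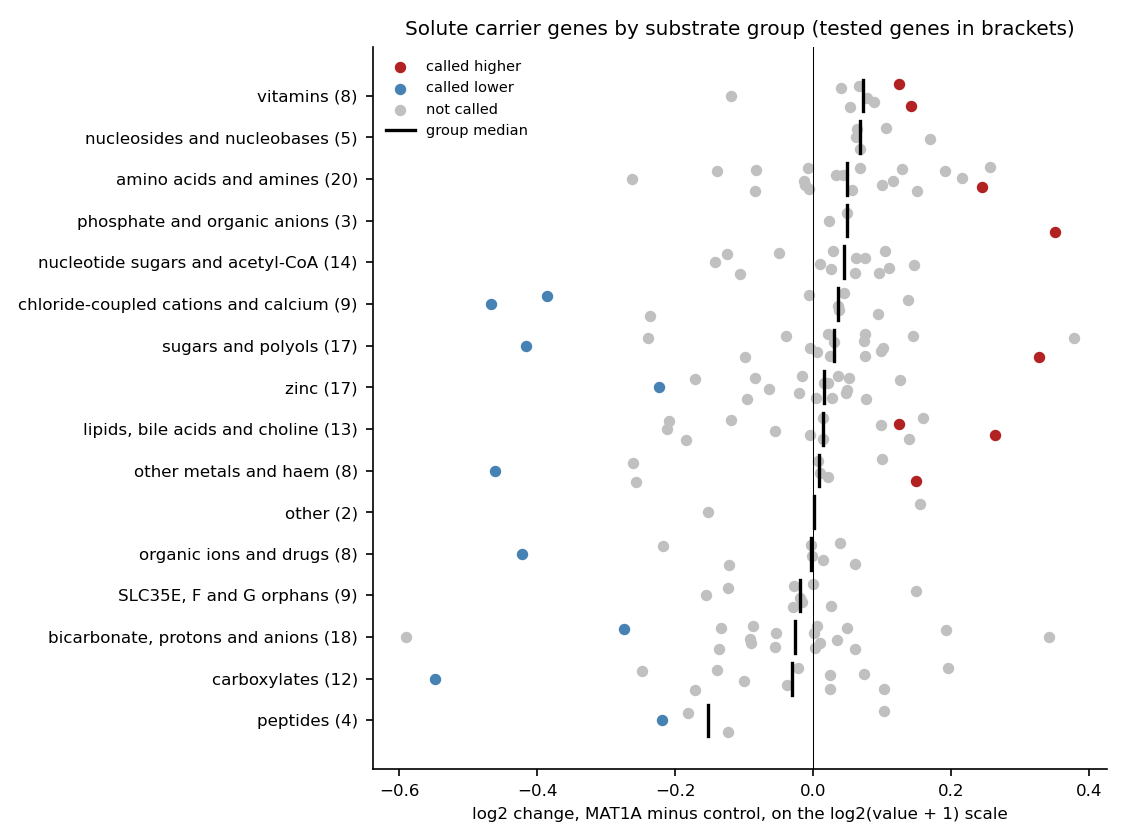
Log2 change (MAT1A minus control) of each tested carrier by substrate group; each point is 1 gene, called genes are coloured by direction and the bar is the group's median. Group medians lie between -0.15 for peptides and 0.07 for vitamins and for nucleosides.

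How small a change could be seen depended on the level. In the 34 tested carriers with a mean under 5, the 95% interval of the log2 change reached a median of 0.27 to either side, and 1 was called. It reached 0.14 for the 83 carriers with a mean of 5 to 50, of which 7 were called, and 0.08 for the 50 carriers above that, of which 9 were called. Shares of all genes called within these levels were not counted. With a filter of at least 5 in place of 1, 12.9% of carriers and 12.8% of all genes were called. SLC5A6 and SLC27A4, with changes of 0.12 and levels above 50, were called, while the low gene SLC2A11 with a change of 0.38 was not. SLC16A6, with a mean of 0.836 and a change of -0.55, was called. The part of level in single calls was not tested.

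**Figure D4:**
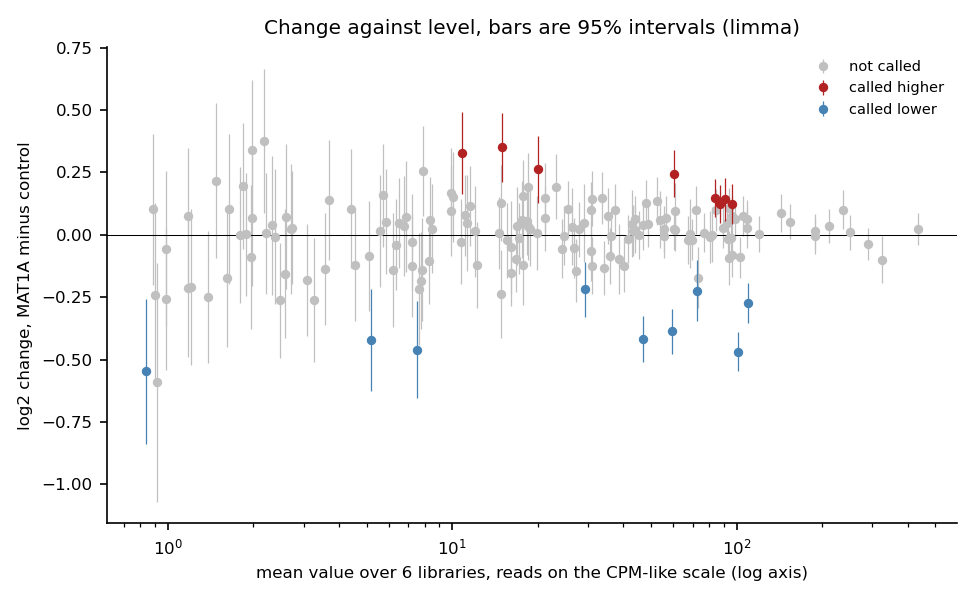
Log2 change of each tested carrier with its 95% interval against its mean deposited level (log axis), called genes coloured. Intervals narrow from a median of 0.27 to either side under a level of 5 to 0.08 at 50 or more, and the called genes with changes near 0.12 are all at the high end.

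Genes that act on carriers were read from lists of the same table. In the list of regulators, 4 of 11 tested genes were called (36.4%), all lower. Of all tested genes 11.4% were called, and 7.4% were called lower. The median log2 change of the list was -0.16, against 0.00 for all tested genes. The list was written with earlier results of these data known. TXNIP, an arrestin-domain protein that takes GLUT1 off the cell surface, stood at 548, 571 and 532 in the controls and 360, 366 and 347 in the MAT1A libraries (log2 change -0.62, SE 0.04, limma adjusted p = 1.05e-09). Its relative ARRDC4 stood at 113, 112 and 105 and then at 73.4, 75.1 and 71.2 (log2 change -0.58, limma adjusted p = 2.99e-08). Both lay far outside the control range in all MAT1A libraries, with falls on the log2(value + 1) scale larger than that of SLC12A7. NEDD4L, a ubiquitin ligase that removes ion channels and carriers from the membrane, was at 278, 276 and 288 and then at 243, 228 and 249 (log2 change -0.23, limma adjusted p = 0.000376). SGK1, the kinase that holds NEDD4L in check, was the remaining call and is named after its value was seen (log2 change -0.16, limma adjusted p = 0.0224). The SGK1 call was lost without control library 1, 2 or 3 or MAT1A library 2 (adjusted p up to 0.0965), and those of TXNIP, ARRDC4 and NEDD4L held throughout.

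Of the pumps that drive the coupled carriers, 4 of 5 tested Na,K-ATPase genes were called higher (80%, against 4.01% of all genes). ATP1B3, a beta subunit, was at 193, 206 and 212 and then at 220, 223 and 228 (log2 change 0.13, limma adjusted p = 0.0216), and FXYD3, a small regulatory subunit, was at 21.3 to 22.3 and then at 25.5 to 30.1 (log2 change 0.31, limma adjusted p = 0.00382). In neither gene did the groups overlap. Without control library 1 only FXYD3 of this list was called, and with the muscle marker level as a covariate none was. Without control library 3 or MAT1A library 1 it was 2 of 5. Of the 18 V-ATPase genes tested, 2 were called (11.1%, against 11.4% of all genes), a share near the background. Both were higher: ATP6V1E1 (log2 change 0.13, limma adjusted p = 0.0235) and ATP6V0B (0.11, 0.0471). No V-ATPase gene was called without control library 1, control library 3 or MAT1A library 2, or with DESeq2.

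Carriers with other symbols numbered 34, of which 3 were called (8.82%, against 11.4% of all genes). That share was no higher than the background. RHCG, which conducts ammonia, was higher, at 3.04, 2.58 and 2.08 in the controls and 4.37, 4.68 and 4.38 in the MAT1A libraries (log2 change 0.63, limma adjusted p = 0.00181). SLCO5A1 was lower, at 4.36, 2.78 and 3.47 and then 2.21, 1.64 and 1.96 (log2 change -0.62, limma adjusted p = 0.00645), and so was SLCO1B3, an organic anion carrier best known from liver, at 6.47 to 7.09 and then 4.85 to 5.45 (log2 change -0.30, limma adjusted p = 0.0441). In these 3 genes the groups did not overlap. The SLCO1B3 call was lost on leaving out any of the 6 libraries, with an adjusted p of up to 0.172. SLCO5A1 was highest in control library 1, and its call held without each library in turn. It was not called with the muscle covariate (limma adjusted p = 0.346), a fit in which only 3.26% of all genes were called.

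**Figure D5:**
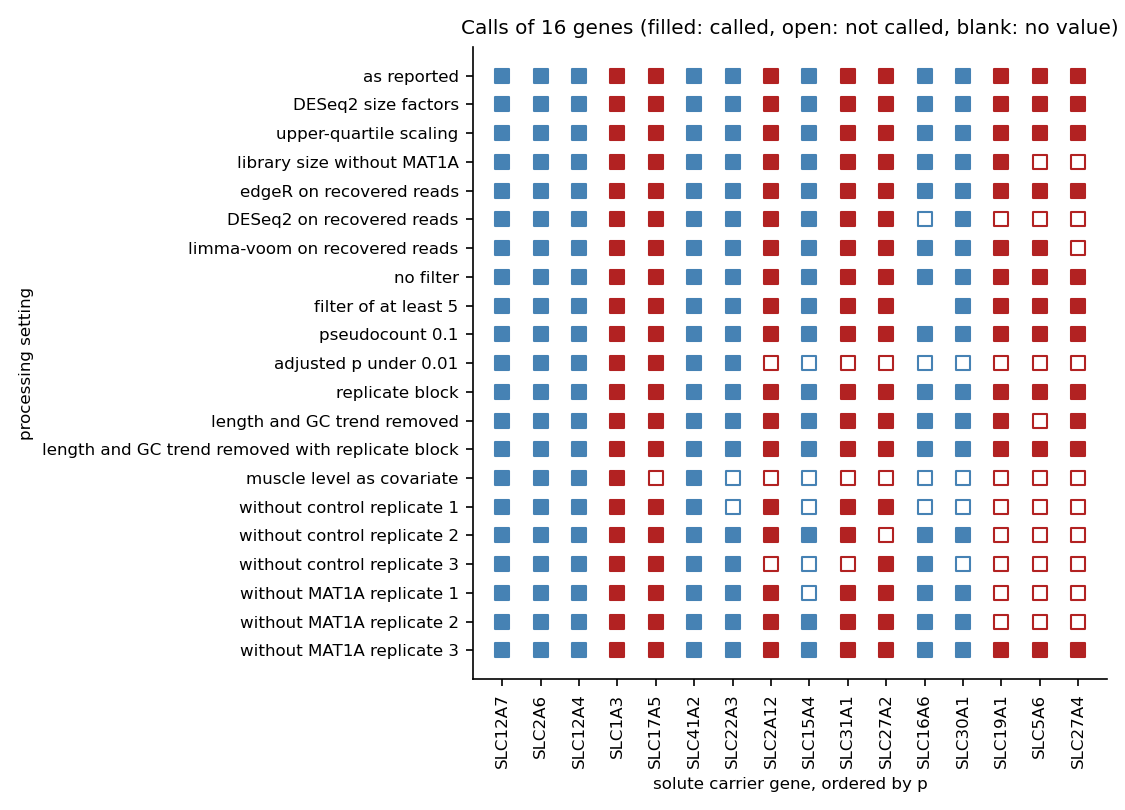
Calls of 16 carriers (horizontal axis, in order of p) under each processing setting (vertical axis): filled squares are called, open squares are not, red is higher and blue lower in the MAT1A libraries, and a blank has no value. SLC12A7, SLC2A6, SLC12A4, SLC1A3 and SLC41A2 are filled in every row, and 10 of the 16 genes lose the call when at least 1 library is left out.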

How the data were processed

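RNA of 6 libraries of 5637 cells (3 control, 3 MAT1A) was sequenced after unstranded TruSeq preparation, per the labels' protocols. The authors deposited a signal for each gene, reads relative to a scaled library size; STAR 2.6.0c, featureCounts and edgeR with hg38 are named in the submitters' processing notes, and no source used here gives their settings or annotation. The deposited values of all 6 columns were whole multiples of 1 step within 0.001 reads for 100% of values, and counts recovered from that step gave the depths in the report and the floor of 3 reads, which reflect counting error alone, as PCR copies were not marked by molecular identifiers. There were 0 blank and 0 repeated symbols.

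Because the table holds scaled values, the test was limma 3.58.1 (R 4.3.3) with an intensity trend on log2(value + 1), two-sided, all 6 libraries, with Benjamini-Hochberg adjustment over 12866 genes; log2 changes on this scale understate low genes. Errors are SD over 3 libraries. The limma and edgeR steps were also run on simulated reads. These had the same dispersion for every gene and no replicate-number or muscle effect. That run cannot show how the calls behave under such effects. Alternatives were other scalings, edgeR 4.0.16, DESeq2 1.42.0 and limma-voom on recovered reads, other filters, pseudocount and threshold, a length and GC trend, a muscle covariate, leaving out each library, and the replicate block. Chi-square per degree of freedom between recovered reads was 1.86 or more within groups, so no library was taken as a duplicate.

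Deviations from the group mean went together over genes in libraries whose titles share a number (correlations 0.246, 0.178 and 0.191). All are over 0.1, so the numbers may pair the libraries. Such a pairing comes from the data, not from a label. The 17 calls are from the fit without it, and the fit with the replicate block, which called 31, is an alternative.

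Members and lists were chosen with earlier results of these data known, and the motifs after values were seen. Named genes were up to 3 called members per group and direction with the smallest p (or the 2 highest means of a group with 0 calls), the 5 largest called changes per direction, the 10 highest levels per kilobase, and up to 3 called genes per list and direction. Genes called only with the block and SLC12A2 were added; some genes the rule names are not reported here. Positions are from GENCODE 29 (GRCh38, 169 of 170 members matched), promoters from RefSeq (134 matched, 14 of the 17 called). Exons of 81 members overlap those of another gene, and unstranded reads there cannot be told apart.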

Additional observations from a re-analysis of the deposited data

How the results depend on the processing

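The 17 calls (8 higher, 9 lower) were the same 17 genes with DESeq2 size factors, upper-quartile scaling, edgeR on recovered reads, no filter and a pseudocount of 0.1. DESeq2 called 13 of them (7.78%, against 7.44% of all genes), with 5 higher. At an adjusted p under 0.01 there were 8 calls (4.79%, against 5.15%), 2 of them higher. The replicate block called 31 (18 higher, 13 lower), among them all 17; beyond the calls given in the report it changed no other call of a named carrier. With the length and GC trend removed and the replicate block it was 29 (17.5%, against 19.4%; 14 higher, 15 lower), and with the trend removed alone 18 (7 higher, 11 lower). The muscle marker level as a covariate left 6 (3.59%, against 3.26% of all genes), of which 1 was higher and 5 lower. Leaving out 1 library gave 10 to 25 calls (5.99% to 15%, where 6.19% to 12.9% of all genes were called), with 4 to 12 higher and 5 to 13 lower; the lowest counts were 10 called and 5 lower without control library 1 and 4 higher without control library 2, and without control library 3 there were 5 higher. The share higher among the calls was 47.1%, against 38.9% with the trend removed, 38.5% with DESeq2, 58.1% with the block and 16.7% with the muscle covariate. SLC44A2 and SLC4A2, neither called, crossed 0: SLC44A2 to -0.01222 with the trend removed (with or without the block), and -0.01215 to 0.02991 over the 6 fits that leave out 1 library, and SLC4A2 to -0.01602, and -0.01359 to 0.03113, in the same order and to -0.002447 with library size without MAT1A. Otherwise the changes of named carriers gave 624 values on the same side of the threshold, 53 that lost it and 11 that gained it. The cause of these shifts was not tested beyond the number of libraries and the covariates used. The alternatives for substrate groups and pathway lists were chosen after seeing the data. Depth limited the 34 carriers with a mean under 5, whose 95% interval reached a median of 0.27 to either side on the log2 scale.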
